A study of Homo sapiens with 2 samples.

Results

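Cells with few transcripts of the division cycle were described in 2 single-cell RNA libraries of MOLT4, a long-cultured human leukemia line known to be of T-cell origin. The SP11 library came from cells given the compound SP11 at 0.8 µM, its IC50, for 48 h, and the control library from untreated cells. The study describes SP11 as acting on HSP90, the chaperone on which many kinases and other signalling proteins depend to fold. Members were chosen by 2 measured shares, and were the cells at or below their library's median for the share of UMIs (unique molecular identifiers, each tagging 1 captured RNA molecule) from the HIST1H histone genes, and also for the share from 12 mitotic genes, namely PIF1, UBE2C, CDC20, CCNB1, PLK1, CENPF, HMMR, AURKA, CCNB2, CENPE, TOP2A and MKI67. Of 1732 cells that passed the filters, 445 were members, with 160 of 769 in the SP11 library and 285 of 963 in the control library. Each group had 1 library, and the labels do not say from how many cultures, so values compare libraries and not conditions, no test between groups was made, and every interval given is a 95% interval that covers counting error only.

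Replication-dependent histone genes such as those of the HIST1H cluster are transcribed mainly in S phase, when new DNA is packed into nucleosomes. Mitotic regulators such as PLK1 and CCNB1 build up in G2 and M phase and are cleared at or after division. Outside the cycle and in early G1, their genes are held down by the DREAM complex, which binds a promoter element called CHR (cell cycle genes homology region), often with CCAAT boxes nearby. A cell low in both groups of transcripts is therefore usually expected in G1, at the G1/S border or outside the cycle, and RNA counts of this kind do not by themselves separate these states.

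The cut for the HIST1H share was 0.0471% of UMIs in the SP11 library and 0.0340% in the control library, and the cut for the mitotic share was 0.151% in SP11 and 0.0891% in control. The members just inside the cuts had 0.0470% HIST1H and 0.151% mitotic UMIs in SP11, and 0.0337% and 0.0850% in control. The nearest cells outside had 0.0473% and 0.151% in SP11, and 0.0341% and 0.0893% in control. Within 10% of either cut lay 28 SP11 members and 22 control members. These shares rest on small counts, since a typical SP11 member held 3 HIST1H and 6 mitotic UMIs and a typical control member 3 and 5. Members made up 20.8% of SP11 cells (18.0 to 23.8) and 29.6% of control cells (26.7 to 32.6), where 25.1% would be members if both shares were unrelated. Because each library was cut at its own median, the SP11 share and the control share do not compare how many cells had left the cycle. With the control cuts applied to both libraries, 70 SP11 cells qualified, 9.10% of that library, and 90 of the SP11 members lay above a control cut.

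**Figure D1:**
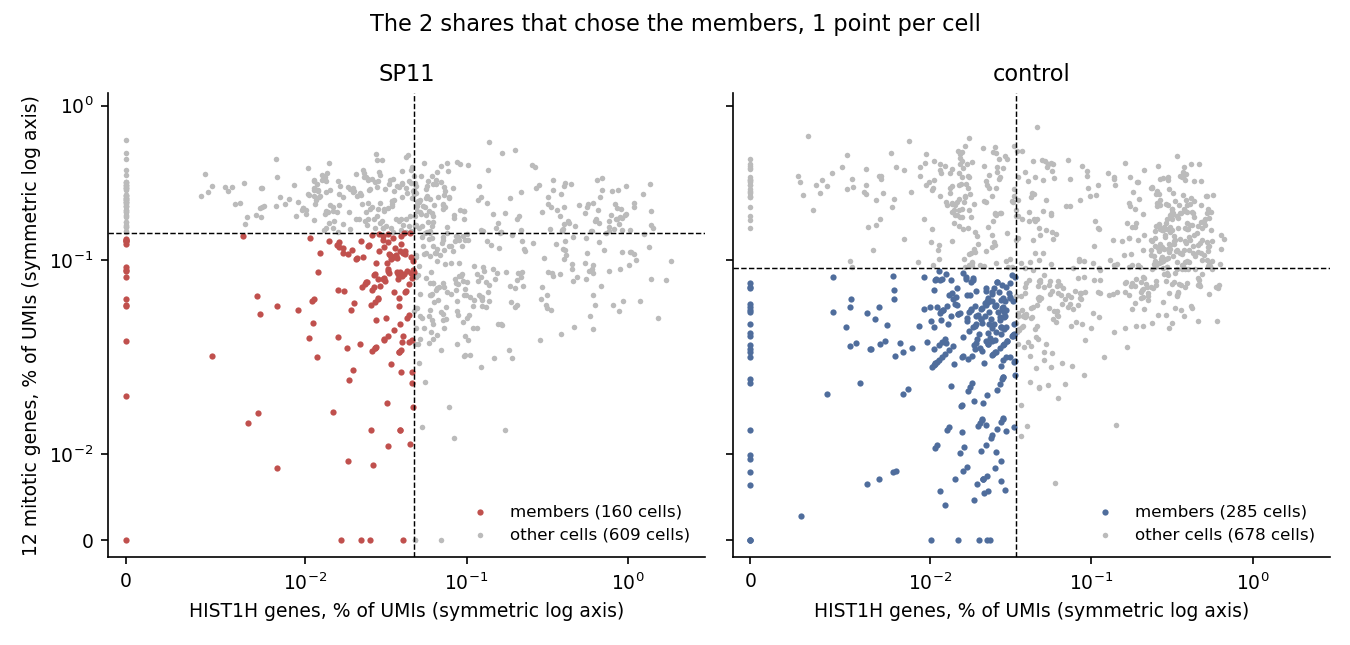
Share of UMIs from HIST1H genes (horizontal axis) and from the 12 mitotic rule genes (vertical axis), both in percent on symmetric log axes, with 1 point per cell and dashed lines at the library medians. Members are the coloured points at the lower left, 160 in the SP11 panel and 285 in the control panel.

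Members were shallower than other cells. The median was 9132.5 UMIs in SP11 members and 11664 in other SP11 cells, and 15537 UMIs in control members and 20026.5 in other control cells. Median detected genes were 3208 in SP11 members and 3644 in other SP11 cells, and 4761 in control members and 5420.5 in other control cells. Mitochondrially encoded UMIs had a median share of 5.77% in SP11 members and 5.61% in other SP11 cells, and 9.77% in control members and 8.83% in other control cells. Scrublet, a doublet caller, marked 5 SP11 members, 23 other SP11 cells, 4 control members and 19 other control cells, and these were kept. The libraries share 114 barcode sequences, which include 21 SP11 members and 32 control members, and the same barcode did not carry a similar profile in both (mean correlation 0.0066, against 0.0015 between different barcodes). T-lineage markers were close to 0 in members, as CD4 was the single measured gene of 33, and 20 of the 33 had no UMI in SP11 cells and 18 none in control cells. Markers of granulocyte precursors were present, with ELANE, a granule protease, at 493 CPM (UMIs of a gene scaled to the same total in every group) in SP11 members and 1158 CPM in control members. The cells are therefore called members here, and no cell type name is given to them.

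Genes of G2 and mitosis that the rule did not use had the lowest median ratio among lists with 6 or more measured genes in each library. Genes reaching 100 UMIs in a library were taken as measured, and a ratio of 1.5-fold or more was used as a size. Of 7958 genes measured in SP11, 4.75% were 1.5-fold or more lower in members and 2.89% as much higher. Of 10246 genes measured in control, the shares were 3.87% lower and 3.53% higher, and DESeq2 size factors moved these 397 and 362 genes to 478 and 270. In the list of 44 G2 and M genes outside the rule, 35 of 43 measured genes were that much lower in SP11 members, with a median log2 ratio of -1.21 beside -0.05 over all measured genes. In control members 42 of 44 were lower, with a median of -2.0 beside -0.03. The list follows the rule closely, since its genes are transcribed with the 12 mitotic genes that chose the members, so these counts describe how far the selection reached.

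AURKB, the kinase of the chromosomal passenger complex, lay at 18.7 CPM (12.7 to 26.6) in SP11 members and 58.5 CPM (53.2 to 64.2) in other SP11 cells, a log2 ratio of -1.64. In control members AURKB lay at 3.89 CPM (2.30 to 6.15), against 53.4 CPM (49.8 to 57.3) in other control cells, a log2 ratio of -3.78. The intervals of members and other cells were apart in both libraries. NDC80, a kinetochore protein that binds microtubules, had 7.85 CPM in SP11 members and 38.1 CPM in other SP11 cells, and 6.26 CPM in control members and 48.7 CPM in other control cells. ASPM, a spindle pole protein, had 7.85 CPM in SP11 members and 41.3 CPM in other SP11 cells, and 10.6 CPM in control members and 71.4 CPM in other control cells.

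The kinesins KIF14 and KIF23, motors needed for cytokinesis, had log2 ratios of -2.01 and -1.65 in SP11, and of -2.87 and -2.93 in control. Among genes with 200 or more UMIs, the lowest ratio in control was that of KIF20A, another cytokinesis kinesin, in control. It had 2 UMIs in control members and 250 in other control cells, a log2 ratio of -5.31 (-8.36 to -3.44). In SP11 it had 10 UMIs in members and 159 in other cells, a log2 ratio of -1.79 (-2.87 to -0.87).

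After each cell was thinned to 4400 UMIs, AURKB was detected in 7.5% of SP11 members (3.94 to 12.7) and 19.4% of other SP11 cells, and in 1.40% of control members (0.384 to 3.55) and 17.6% of other control cells. The members stayed below the other cells at equal depth. NDC80 was detected in 2.50% of SP11 members and 14% of other SP11 cells, and in 1.75% of control members and 18.0% of other control cells. At the upper end of the list, ANP32E, a histone chaperone, had log2 ratios of -0.29 in SP11 and -0.40 in control, and CBX5, a heterochromatin protein, -0.47 in SP11 and -0.17 in control, all under the 1.5-fold size.

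Across 7935 genes measured in both libraries, 125 were 1.5-fold or more lower in members of both, which is 33.2% of the 377 such genes in SP11 and 41.1% of the 304 in control. In the same genes 31 were that much higher in both, 14.1% of 220 in SP11 and 32.3% of 96 in control. The same pair of shares chose the members in each library, so agreement in the lower direction partly follows from the rule.

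The promoters of the genes lower in both libraries are shown for 3 of the 10 lowest genes, because these hold the CHR element (TTTGAA) and the CCAAT box close together. Each line gives the 150 bases before the RefSeq start (GRCh38.p14), with both elements, searched on both strands, in capitals. CKAP2L, a spindle protein, starts on the minus strand at chr2:112764610-112764759, KIF23 on the plus strand at chr15:69414199-69414348 and GTSE1, a microtubule protein of G2, on the plus strand at chr22:46296720-46296869.
CKAP2L: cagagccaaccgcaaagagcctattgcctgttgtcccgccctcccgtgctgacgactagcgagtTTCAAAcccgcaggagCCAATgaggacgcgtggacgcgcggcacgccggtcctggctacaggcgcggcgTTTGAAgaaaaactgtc
KIF23: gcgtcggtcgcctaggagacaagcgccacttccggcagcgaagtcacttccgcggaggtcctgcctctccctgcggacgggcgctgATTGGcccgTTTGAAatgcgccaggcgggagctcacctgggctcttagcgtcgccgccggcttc
GTSE1: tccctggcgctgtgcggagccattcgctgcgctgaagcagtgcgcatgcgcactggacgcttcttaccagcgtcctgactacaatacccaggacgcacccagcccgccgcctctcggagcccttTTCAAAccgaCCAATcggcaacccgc

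Promoter sequence was matched for 109 of the 125 genes lower in both libraries. Over the 250 bases before the start, TTTGAA was found in 46 of them or 42.2% (32.8 to 52.0), in 8.51% of 6483 matched promoters of genes measured in both libraries and in 13.6% of all 27305 promoters. CCAAT was found in 66.1% of the promoters of genes lower in both, in 35.8% of those of measured genes and in 33% of all. Both elements occurred in 35.8% of the promoters of genes lower in both, 3.61% of those of measured genes and 4.85% of all. Without the genes of the G2 and M list, 31 of 80 promoters or 38.8% (28.1 to 50.3) held TTTGAA. All genes lower in both were called in cells chosen for few mitotic transcripts, so genes transcribed with the mitotic rule genes were favoured. Leaving out the list does not undo that choice, so the remaining share cannot separate the element from the rule. The E2F letters TTTCCCGC or TTTGGCGC were found in 4.59% of the promoters of genes lower in both (1.51 to 10.4), 3.70% of those of measured genes and 1.96% of all. A match is a run of letters and not a bound site.

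S phase genes did not follow the G2 and M genes in SP11, and in control they were lower in members by a smaller size. Of 43 measured genes, 2 were 1.5-fold or more higher and 3 lower in SP11 members, with a median log2 ratio of 0.00, and 1 was higher and 9 lower in control members, with a median of -0.28. Below a ratio of 1 were 21 of the 43 in SP11 and 35 in control. Over all measured genes, 4.75% in SP11 and 3.87% in control were 1.5-fold or more lower. The list held genes at both ends. UNG, a uracil DNA glycosylase, had 45.3 CPM (35.6 to 56.8) in SP11 members and 27.7 CPM (24.1 to 31.7) in other SP11 cells, and 41.7 CPM (36.0 to 48.0) in control members and 26.1 CPM (23.6 to 28.9) in other control cells. It was among the few genes 1.5-fold or more higher in members of both libraries.

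DTL, which directs replication factors to degradation, had log2 ratios of 0.40 in SP11 and 0.23 in control, and MCM5, a subunit of the replicative helicase, 0.22 and 0.32. E2F1, the transcription factor of G1/S genes, had 0.44 in SP11 and 0.38 in control, in the list of 28 origin licensing genes, where 1 was 1.5-fold or more lower in SP11 members and 4 in control members. RRM2, the regulated subunit of ribonucleotide reductase, was at the lower end, with 274 CPM in SP11 members and 432 CPM in other SP11 cells, and 128 CPM in control members and 355 CPM in other control cells. RAD51AP1, a recombination protein, had log2 ratios of -1.08 in SP11 and -1.17 in control.

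Cells above the HIST1H cut and at or below the mitotic cut, called histone only, had more S phase transcripts than members. HIST1H genes are themselves transcribed mainly in S phase, so this difference follows in part from the cut. The median share of S phase genes was 0.448% of UMIs in SP11 members and 0.553% in histone only SP11 cells, and 0.322% in control members and 0.498% in histone only control cells. In cells above the mitotic cut and at or below the HIST1H cut, called mitotic only, the median was 0.364% in SP11 and 0.314% in control. Members therefore lay between these groups in SP11 and near the mitotic only cells in control. UNG, at 45.3 CPM in SP11 members, had 49.0 CPM in histone only cells, 16.6 CPM in mitotic only cells and 15.2 CPM in cells above both cuts of SP11. At 41.7 CPM in control members, it had 49.5 CPM in histone only cells, 17.3 CPM in mitotic only cells and 18.3 CPM in cells above both cuts of control.

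**Figure D2:**
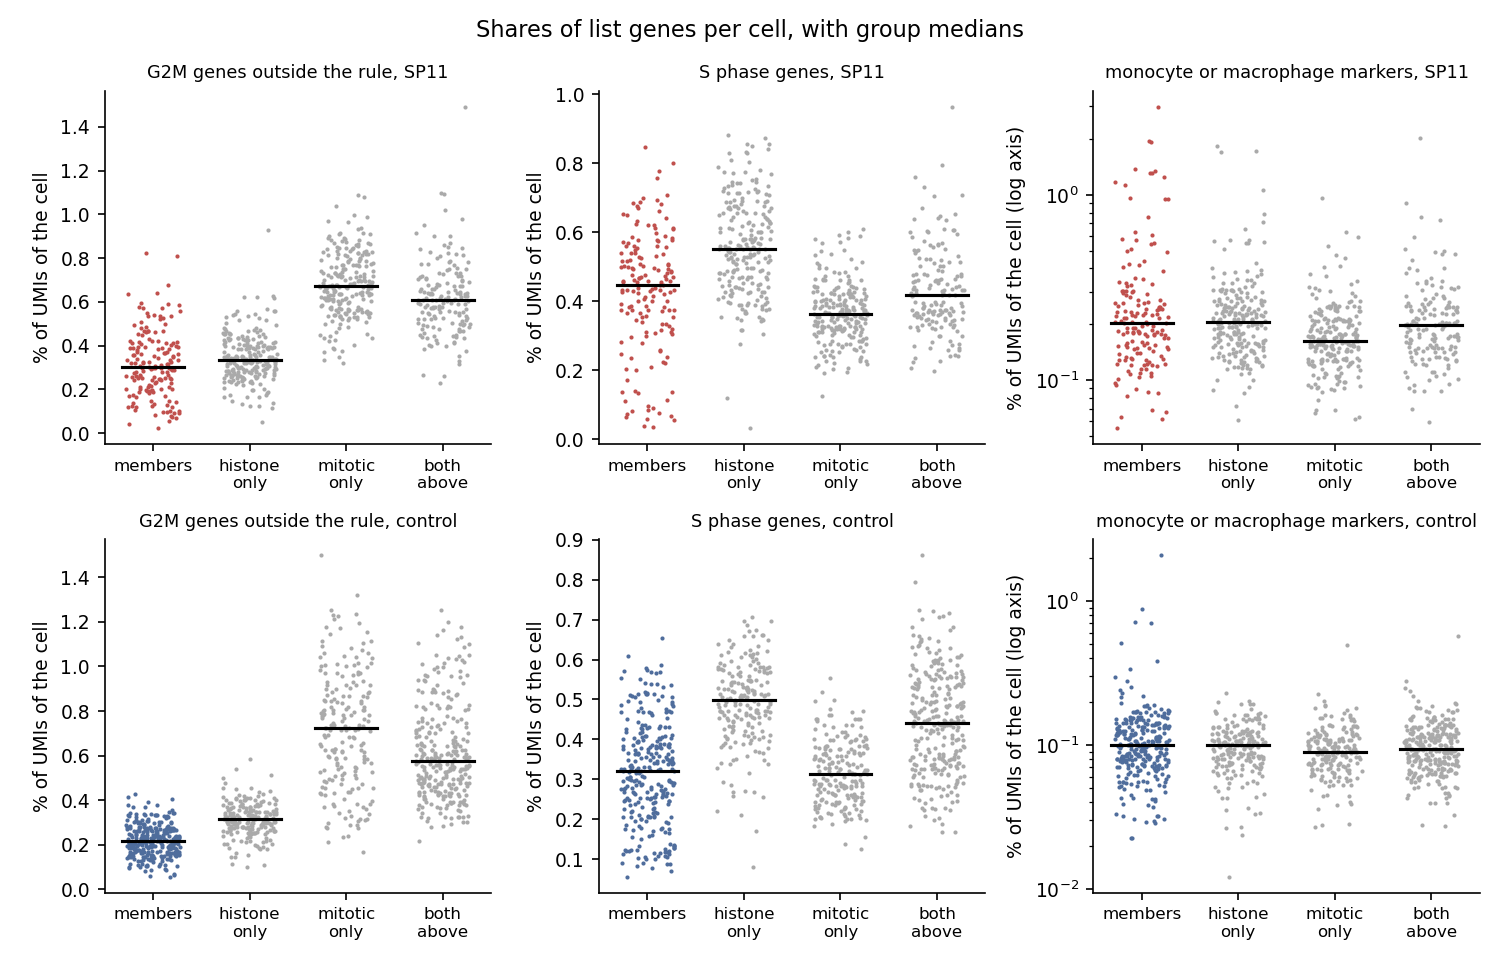
Percent of each cell's UMIs from G2 and M genes outside the rule, S phase genes, and monocyte or macrophage markers (the markers on a log axis), with 1 point per cell, black lines at group medians, SP11 above and control below. Members, in colour, have median S phase shares of 0.448% in SP11 and 0.322% in control. Their lower quartile is 0.332% in SP11, above the 0.316% of mitotic only cells, and 0.227% in control, below the 0.258% of mitotic only cells.

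Few histone genes outside HIST1H were measured. H2AFX, the histone variant of the DNA damage response, had log2 ratios of -1.04 (-1.89 to -0.30) in SP11 and -1.25 (-1.71 to -0.82) in control. HIST2H2AC, a replication-dependent histone, had -0.28 (-0.87 to 0.27) in SP11, which was -0.89 without the member with most of its UMIs, and -2.02 (-2.39 to -1.67) in control. Chromatin and spindle proteins were mostly lower, with 20 of 21 measured tubulin and high mobility group genes below a ratio of 1 in SP11 members and 18 of 21 in control members, although 3 in SP11 and 5 in control passed the 1.5-fold size. HMGB2, a DNA-bending protein, had 281 CPM in SP11 members and 425 CPM in other SP11 cells, and 223 CPM in control members and 540 CPM in other control cells.

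Regulators of entry into the cycle, inhibitors among them, were more often below than above a ratio of 1 in members. Of the measured cyclin D, CDK4/6 and CDK inhibitor genes, 12 of 18 in SP11 and 18 of 21 in control were below. By 1.5-fold or more, 3 of 18 in SP11 and 4 of 21 in control were lower, beside 4.75% and 3.87% of all measured genes. As much higher were 0 in each library, which is close to the 2.89% and 3.53% of all measured genes. CDKN2C, which encodes the inhibitor p18, was lower, at log2 ratios of -1.25 in SP11 and -1.13 in control. CDKN1B, which encodes p27, had log2 ratios of -0.24 (-0.95 to 0.41) in SP11 and -0.42 (-0.67 to -0.18) in control. CDKN1A, which encodes p21, was not measured in either library, with a UMI in 3.75% of thinned SP11 members and 1.05% of thinned control members.

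Genes associated with quiescence, the reversible exit from the cycle, were mixed. Of those measured, 4 of 18 in SP11 were 1.5-fold or more higher and 0 lower in members, and 2 of 24 were higher and 2 lower in control. Over all measured genes, 2.89% in SP11 and 3.53% in control were that much higher, and 4.75% and 3.87% lower. The lowest of the list were LIN52, ZFP36L2 and LIN54 in SP11, and CCNG2, LIN54 and SESN2 in control. TXNIP, an inhibitor of thioredoxin that is high in resting cells, had 26 CPM (18.8 to 35.0) in SP11 members and 17.0 CPM (14.2 to 20.2) in other SP11 cells, and 25.9 CPM (21.5 to 31.0) in control members and 14.6 CPM (12.7 to 16.7) in other control cells. At equal depth, TXNIP was found in 8.75% of SP11 members (4.87 to 14.25) and 6.24% of other SP11 cells (4.45 to 8.46). In control it was found in 9.8% of members (6.63 to 13.9) and 7.4% of other cells (5.52 to 9.61), and the intervals overlapped in both libraries. MXD4, an antagonist of MYC, had log2 ratios of 0.75 in SP11 and 0.73 in control. MYC itself was not lower in members, at 0.33 (0.08 to 0.58) in SP11 and 0.28 (0.15 to 0.41) in control. KLF6, a zinc finger factor, had 0.66 in SP11 and -0.37 in control.

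**Figure D3:**
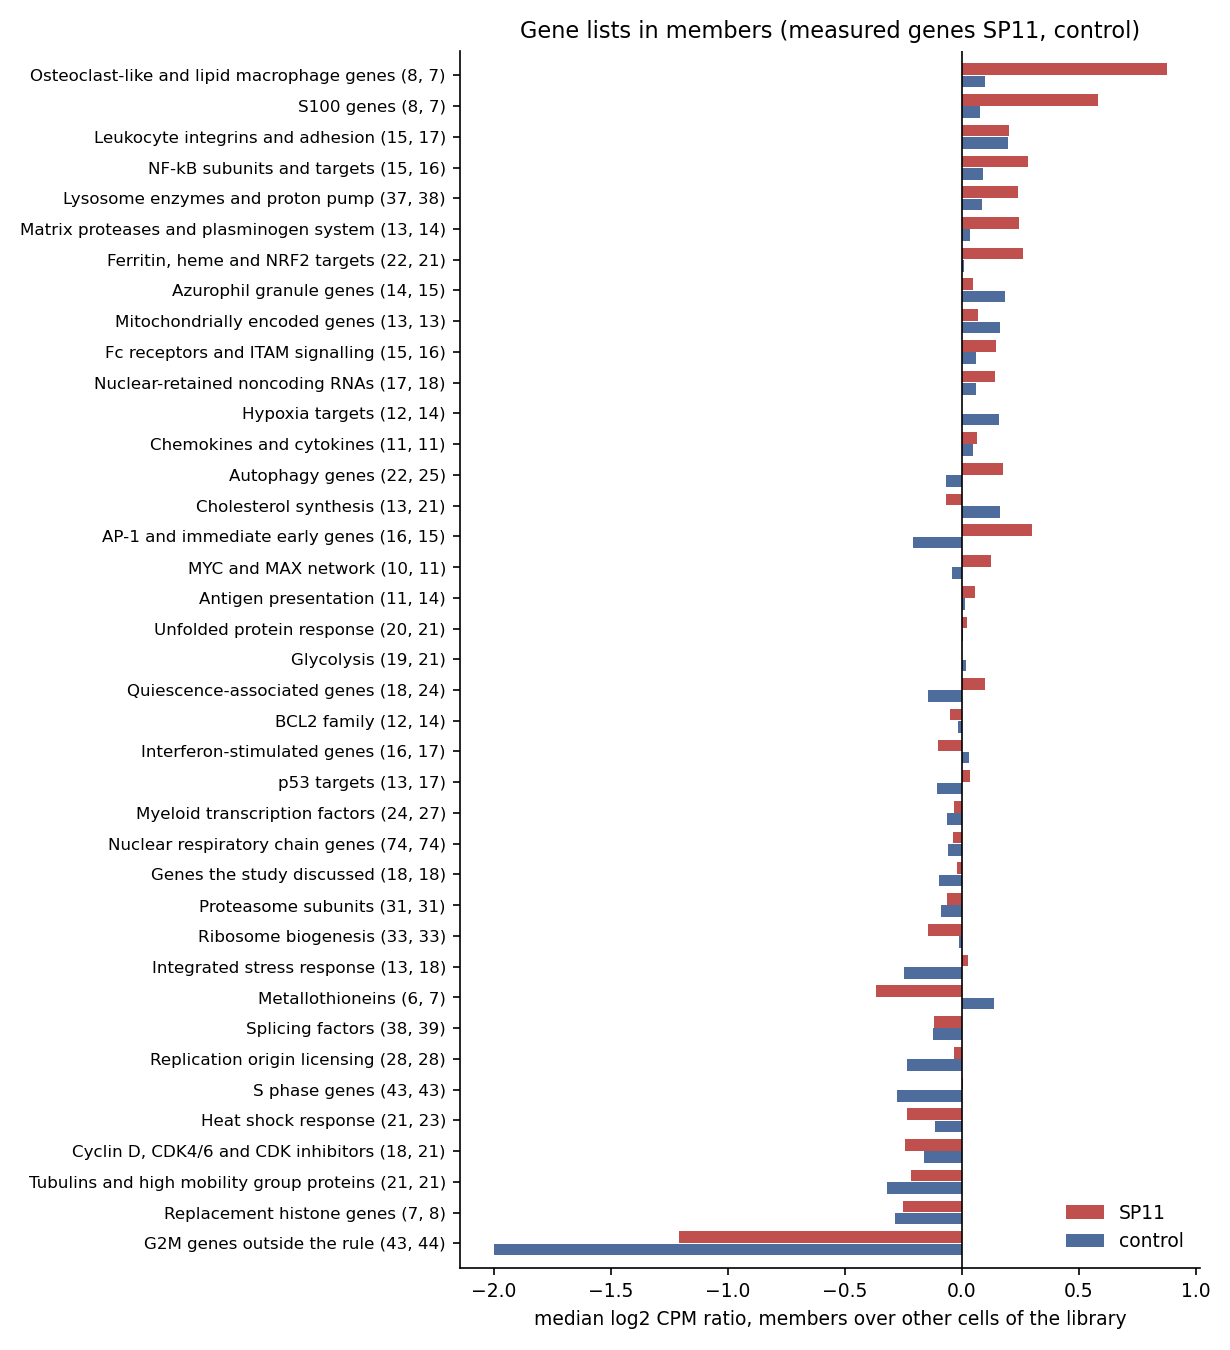
Median log2 ratio of CPM in members over CPM in other cells of the same library for each gene list with 6 or more measured genes, cell type marker lists not shown, SP11 above control in each pair of bars, with the numbers of measured genes in brackets. The G2 and M list stands lowest, at -1.21 in SP11 and -2.0 in control, while the lists of osteoclast-like and lipid macrophage genes and of S100 genes have the highest SP11 bars of those drawn.

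The genes furthest above the other cells belonged to another programme. MMP1, a collagenase, had 309 CPM (282 to 337) in SP11 members and 48.9 CPM (44.1 to 54.1) in other SP11 cells, a log2 ratio of 2.66. In control it had 120 CPM (110 to 130) in members and 27.2 CPM (24.6 to 30.1) in other cells, a log2 ratio of 2.14. S100A9, which binds calcium and is abundant in neutrophils, had 314 CPM in SP11 members and 97.8 CPM in other SP11 cells, and 74.1 CPM in control members and 13.3 CPM in other control cells. FTH1, the ferritin heavy chain that stores iron, had 6789 CPM in SP11 members and 2990 CPM in other SP11 cells, and 1366 CPM in control members and 756 CPM in other control cells.

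The other genes of the 10 highest over both libraries were CCL2, a monocyte chemokine, TYROBP, a signalling adaptor of myeloid receptors, NCF1, a subunit of the phagocyte oxidase, FUCA1, a lysosomal fucosidase, MAML2, a Notch coactivator, NRP1, a neuropilin receptor, and the noncoding AC079466.1. TYROBP had log2 ratios of 1.35 in SP11 and 0.86 in control. In the SP11 library, TDO2, which breaks down tryptophan, had a log2 ratio of 3.31 and HMOX1, which breaks down heme, 2.18. The ratio of TDO2 turned to -3.70 without the cells richest in macrophage markers, described further on. All 295 TDO2 UMIs of SP11 members lay in 7 of the 160 cells. The turned ratio therefore rests on very few UMIs and is not read as a lower level in members. Of the 31 monocyte or macrophage markers, 7 of 13 measured in SP11 and 6 of 15 in control were 1.5-fold or more higher in members and 0 were lower. Over all measured genes, 2.89% in SP11 and 3.53% in control were that much higher. Fewer of the markers passed this size once the cells richest in them were left out, a step for which the markers themselves chose the cells. Summed over all cells, the markers reached 3735 CPM in SP11 members and 2359 CPM in other SP11 cells, and 1234 CPM in control members and 999 CPM in other control cells. CD14, the classical monocyte marker, was not among the measured genes.

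**Figure D4:**
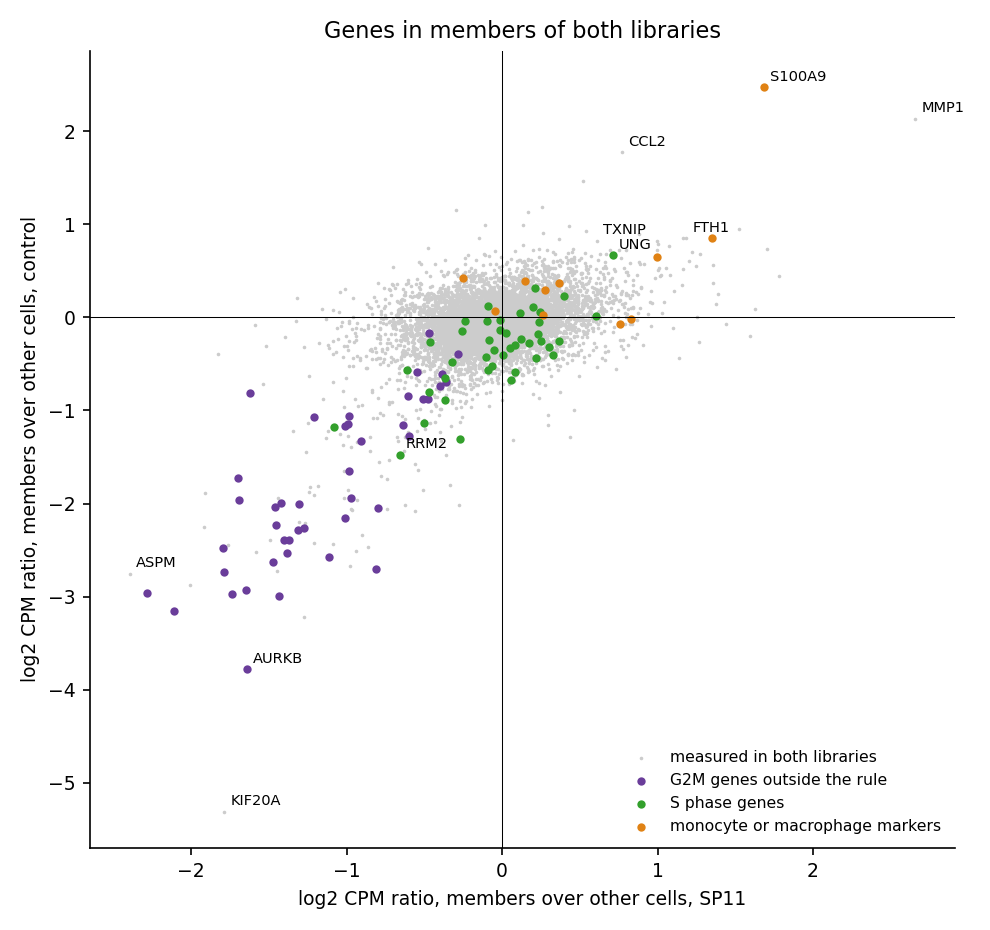
Log2 ratio of CPM in members over other cells in SP11 (horizontal axis) and in control (vertical axis), with 1 point per gene measured in both libraries. G2 and M genes lie in the lower left and S phase genes nearer 0, with list medians of 0.00 in SP11 and -0.28 in control. MMP1 (2.66 in SP11, 2.14 in control) and S100A9 (1.68, 2.48) lie in the upper right.

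Some of these ratios rested on fewer cells than others. In control, 1 member with 37119 UMIs held 321 of the 555 MMP1 UMIs of all members, 119 of the 123 of SPP1, the secreted matrix protein osteopontin, 60 of the 148 of CCL2 and 777 of the 6321 of FTH1. A second control member held 109 UMIs of MMP1 and 61 of the 62 of TDO2, and another held 132 of the 343 of S100A9. Leaving out the cell with most UMIs of the gene gave a log2 ratio for MMP1 of 2.12 in SP11 and 0.89 in control, and for CCL2 of 0.60 in SP11 and 1.03 in control. The same step gave 1.94 in SP11 and 1.78 in control for S100A9, and 1.91 in control for NCF1, beside 1.46 with all cells. FUCA1, NRP1 and AC079466.1 moved within their counting intervals in both libraries. For these genes 50% of the UMIs lay in 22, 11 and 27 of the 285 control members, and in 9, 10 and 12 of the 160 SP11 members. In SP11, 1 member with 23400 UMIs held 158 of 511 MMP1 UMIs, and 3 members held 115, 105 and 31 of the 295 UMIs of TDO2.

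At equal depth, a UMI of MMP1 was found in 11.2% of SP11 members (6.80 to 17.2) and 5.42% of other SP11 cells (3.76 to 7.53), and in 2.11% of control members (0.776 to 4.53) and 1.47% of other control cells (0.710 to 2.70). The intervals of members and other cells overlapped in both libraries. S100A9 was found in 29.4% of SP11 members and 15.6% of other SP11 cells, and in 7.37% of control members and 4.72% of other control cells. FTH1 was found in 99.4% of SP11 members and 97.7% of other SP11 cells. In control it was found in 87.4% of members and 83.5% of other cells. Its ratio therefore reflects the number of UMIs in a cell more than the number of cells with one. The FTH1 UMIs were spread unevenly over members. Before thinning, 10 of the 160 SP11 members held at least as many FTH1 UMIs as all other SP11 members together. In control, 13 of the 285 members held at least as many as all other control members together.

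Cells rich in macrophage markers were more frequent among members. When the 5% of cells of each library with the highest marker share were taken, 18 of 39 in SP11 and 21 of 49 in control were members. This was 11.2% of SP11 members (6.80 to 17.2) and 3.45% of other SP11 cells (2.15 to 5.22), and 7.37% of control members (4.62 to 11) and 4.13% of other control cells (2.76 to 5.91). The intervals were apart in SP11 and overlapped in control. Histone only cells held 5.78% (3.11 to 9.68) in SP11 and 3.55% (1.44 to 7.18) in control, and both intervals overlapped those of members. The median marker share was 0.203% of UMIs in SP11 members and 0.205% in histone only SP11 cells. In control it was 0.0999% in members and 0.0994% in histone only cells, so the typical member did not stand out from these. Without these cells on both sides, a choice made after the data were seen, 144 genes in place of 230 were 1.5-fold or more higher in SP11 members and 326 in place of 362 in control members. The log2 ratio of MMP1 was then 0.54 in SP11 and 0.62 in control, that of S100A9 0.64 and 0.37, and that of FTH1 0.35 and 0.43. In SP11, FUCA1 had 0.36 in place of 1.27, NRP1 0.53 in place of 1.08 and AC079466.1 0.59 in place of 0.99. S100A9 is itself among the markers that chose the removed cells, so its lower ratio follows in part from that choice. The G2 and M list kept 31 of 42 measured genes lower in SP11 and 42 of 44 in control.

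A small group of members was also low in S phase transcripts. Of the 5% of cells with the lowest S phase share, a choice made after these values were seen, 24 of 39 in SP11 and 42 of 49 in control were members. That was 15.0% of SP11 members (9.85 to 21.5) and 2.46% of other SP11 cells (1.39 to 4.03), and 14.7% of control members (10.8 to 19.4) and 1.03% of other control cells (0.416 to 2.12). The intervals of members and other cells were apart in both libraries. Members were already chosen for few HIST1H transcripts, which are made mainly in S phase, so this excess follows in part from the rule. In SP11 13 of the 24, and in control 7 of the 42, were also among the cells richest in macrophage markers. Their median depth was 11872 UMIs in SP11 and 13361 in control, beside 9132.5 and 15537 over all members.

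**Figure D5:**
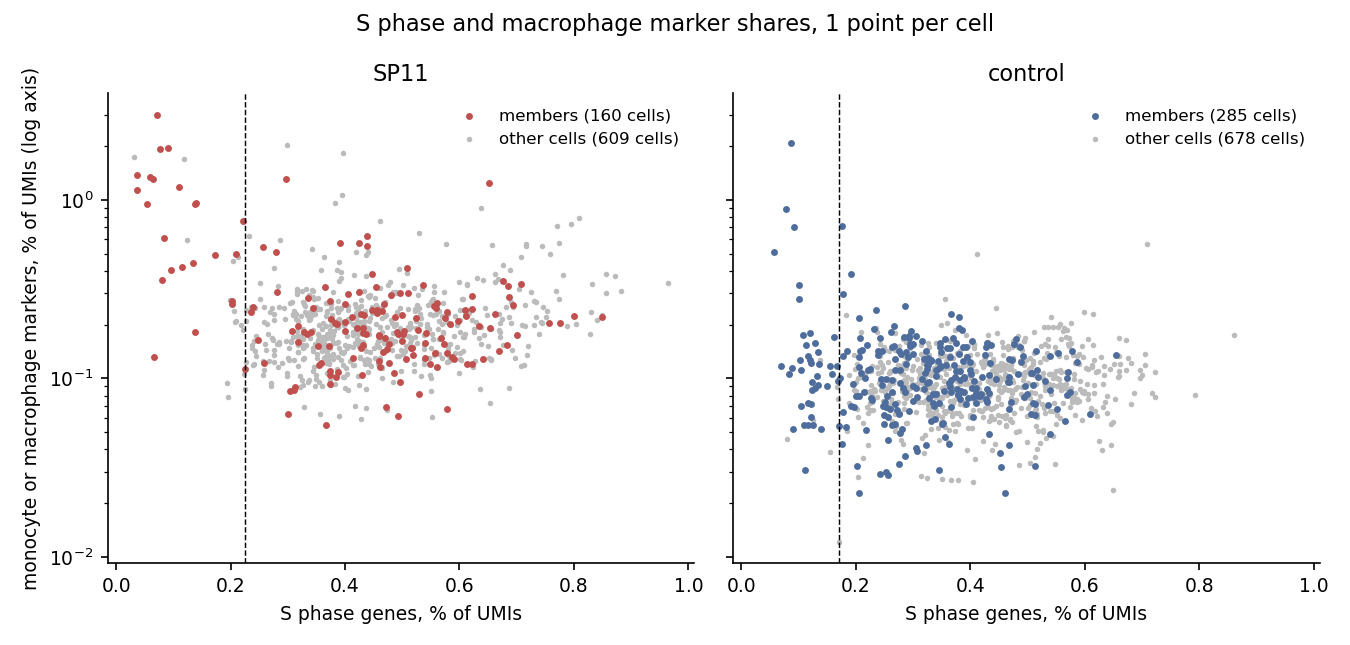
Percent of UMIs from S phase genes (horizontal axis) and from monocyte or macrophage markers (vertical axis, log), with 1 point per cell and a dashed line at the lowest 5% of cells by S phase share. Left of the line lie 24 members among 39 cells in SP11, where many have high marker shares, and 42 members among 49 cells in control, where fewer do.

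The S phase list chose these cells, so neither it nor the origin licensing list, which shares genes with it, is compared. Between these low S phase members and the remaining members of the same library, 10.1% of 2746 measured genes were 1.5-fold or more higher and 30.7% lower in SP11, and 6.14% of 6777 were higher and 15.2% lower in control. The G2 and M list summed to 1361 CPM in low S phase SP11 members and 3522 CPM in the remaining SP11 members, and to 1454 CPM in low S phase control members and 2362 CPM in the remaining control members. Members were already chosen for few transcripts of related mitotic genes. MYBL2, a transcription factor of proliferating cells, had 33 CPM in low S phase SP11 members and 191 CPM in the remaining SP11 members, and 18.2 CPM in low S phase control members and 68.8 CPM in the remaining control members. Ribosome biogenesis genes, of which POLR1B is also in the S phase list, summed to 4660 CPM in low S phase members and 8042 CPM in remaining members of SP11, and to 4426 CPM in low S phase members and 6170 CPM in remaining members of control.

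The macrophage markers summed to 9751 CPM in low S phase SP11 members and 2385 CPM in the remaining SP11 members, and to 2094 CPM in low S phase control members and 1105 CPM in the remaining control members. In SP11, S100A8, the partner of S100A9, had 2116 CPM in low S phase members, where 18 of 24 cells held a UMI, and 162 CPM in remaining members. MMP1 had 1288 CPM in low S phase SP11 members, where 14 of 24 cells held a UMI, and 88.8 CPM in remaining SP11 members. In SP11 members as a whole, 3 cells held 50% of the MMP1 UMIs and 6 cells 50% of those of S100A8. FTH1 had 22210 CPM in low S phase members and 3327 CPM in remaining members of SP11, and 3970 CPM in low S phase members and 975 CPM in remaining members of control. In control, S100A9 had 421 CPM in low S phase members, where 12 of 42 cells held a UMI, and 22.1 CPM in remaining members.

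The difference between the libraries was not tested for the groups that follow. Granulocyte precursor markers summed to 603 CPM in low S phase SP11 members and 1145 CPM in the remaining SP11 members, and to 2888 CPM in low S phase control members and 2613 CPM in the remaining control members. ELANE had 306 CPM in low S phase members and 535 CPM in remaining members of SP11, and 1185 CPM in low S phase members and 1154 CPM in remaining members of control. Hypoxia targets summed to 662 CPM in low S phase SP11 members and 609 CPM in the remaining SP11 members, a log2 ratio of 0.12 (-0.11 to 0.34), and to 2062 CPM in low S phase control members and 1381 CPM in the remaining control members. One of these genes, NDRG1, had 189 CPM in low S phase control members and 51.2 CPM in the remaining control members. With the low S phase cells set aside from the members but not from the other cells, the summed macrophage markers of the remaining members had a log2 ratio over other cells of 0.02 (-0.04 to 0.07) in SP11 and 0.15 (0.10 to 0.19) in control, and the G2 and M list -0.66 and -1.29.

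Clustering the members of each library alone gave 2 groups in SP11 and 3 in control. The smaller SP11 group had 23 cells, 14.4% of members, with a median of 12862 UMIs, and was led by TDO2, S100A12, MMP9, ATP6V0D2, MMP1, S100A8, VWA5A, TM4SF19, S100A9 and FABP4. It held 15 of the 24 low S phase members. In control, a group of 53 cells was led by C4orf47, HIF1A-AS3, PFKFB4, TSC22D3, GBE1, DDIT4 and SLC2A3, several of which are induced by low oxygen or raise glucose use, and it held 23 of the 42 low S phase members. Its hypoxia targets summed to 2700 CPM, against 1239 CPM in the other control members. A group of 62 control cells was led by SLPI, a protease inhibitor, with the metallothioneins MT1E and MT1X among its leading genes. Leading genes define the groups and are given as description.

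Energy and protein homeostasis genes differed by small sizes. None of the 74 nuclear respiratory chain genes and none of the 31 proteasome genes reached 1.5-fold in members of either library. Over all measured genes, 2.89% in SP11 and 3.53% in control were that much higher, and 4.75% and 3.87% lower, so few were to be looked for in these lists. Respiratory chain genes had medians of -0.04 in SP11 and -0.06 in control, and proteasome genes -0.06 and -0.09. Heat shock genes had medians of -0.24 in SP11 and -0.11 in control, with 0 of 21 and 2 of 23 measured genes 1.5-fold or more lower. Most lay below a ratio of 1, 16 of 21 in SP11 and 16 of 23 in control. The 13 mitochondrially encoded genes had medians of 0.07 and 0.16. NEAT1, a nuclear noncoding RNA, had 460 CPM in SP11 members and 281 CPM in other SP11 cells, and 1746 CPM in control members and 1117 CPM in other control cells. BCL2A1, an anti-apoptotic protein, had log2 ratios of 0.87 in SP11 and 0.45 in control. It was the highest of the BCL2 family list in each library, and the list was balanced. Of its measured genes, 6 of 12 in SP11 and 6 of 14 in control lay above a ratio of 1. BCL2 itself was among the lowest of the list in SP11.

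SP11 members were then set beside control members. Of 7625 genes measured over both groups, 13.8% were 1.5-fold or more higher and 33% lower in SP11 members, with a median log2 ratio of -0.22. TMM scaling brought this median to 0.00 and the counts, 1049 higher and 2519 lower as summed, to 1703 and 1819, so the split depends on the scaling. Among other cells the shares were 10.5% higher and 34.5% lower, and for some genes the ratio in other cells is given beside that in members. Where only members are given, as for MYC, CDK6, CCND3 and PPARGC1A, the values do not show whether the difference is particular to members. The G2 and M list had a median of 0.33 in SP11 members over control members and -0.14 for the same genes in other cells. The mitotic cut was higher in SP11, and this part of the difference cannot be told apart from the choice of cells. BIRC5, the survivin gene of the chromosomal passenger complex, had 88.8 CPM in SP11 members and 18.8 CPM in control members, a log2 ratio of 2.24 in members and 1.00 in other cells.

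Where the higher library held 200 UMIs or more of a gene, the largest ratios of SP11 members over control members were those of S100A8, TDO2, CCL2, IFI30, a lysosomal thiol reductase, PLIN2, which coats lipid droplets, NDUFA3, TYROBP, SMIM4, FTH1 and ROMO1. S100A8 had 520 CPM in SP11 members and 17.1 CPM in control members, a log2 ratio of 4.93 (4.60 to 5.28), and 6.99 in other cells. PLIN2 had 194 CPM in SP11 members and 28.7 CPM in control members, a log2 ratio of 2.75 in members and 1.55 in other cells. FTH1 had a log2 ratio of 2.31 in members and 1.98 in other cells. Without the cells richest in macrophage markers, the ratio of TYROBP, itself one of the markers, was 1.12 in place of 2.41 and that of FTH1 1.97 in place of 2.31. That of TDO2, of whose 62 UMIs in control members 61 lay in 1 cell, was 1.63 in place of 3.73, and that of CCL2 was higher, at 4.13 in place of 3.40. S100A8, PLIN2, NDUFA3 and ROMO1 moved within their counting intervals, while IFI30 had 2.51 in place of 3.21 and SMIM4 1.71 in place of 2.36.

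The lowest ratios by the same rule were those of MT-ATP8, CAB39L, ATP6AP1L, LINC02470, PPARGC1A, LINC01226, PPDPF, MT-ND6, AL589693.1 and SATB1-AS1. MT-ATP8, a mitochondrially encoded subunit of ATP synthase, had 43.5 CPM in SP11 members and 1122 CPM in control members, a log2 ratio of -4.69, and -4.37 in other cells. PPARGC1A, a coactivator of mitochondrial biogenesis, had 5 UMIs in SP11 members and 230 in control members.

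By list, cholesterol synthesis genes had a median of -1.49 in SP11 members over control members, with 16 of 19 measured genes 1.5-fold or more lower, and hypoxia targets -1.18, with 11 of 13 lower. Proteasome genes had 0.58, with 15 of 31 higher, and heat shock genes 0.45, with 9 of 21 higher. The same genes in other cells had medians of -1.45, -0.71, 0.53 and 0.58. HSP90AA1, the stress-inducible form of HSP90, had 1926 CPM in SP11 members and 885 CPM in control members, a log2 ratio of 1.12, and 0.97 in other cells. MYC had 100 CPM in SP11 members and 145 CPM in control members, while CDK6, a kinase of G1, had 91.2 CPM in SP11 members and 241 CPM in control members. CCND3, a D-type cyclin, had 211 CPM in SP11 members and 56.4 CPM in control members.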

How the data were processed

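The deposited values are UMI counts by gene and barcode, 1 matrix for each library and not normalized. They came from Cell Ranger 7.1.0 per the file headers, with hg38 per the submitters' processing notes. Whether intronic reads were counted: not given in the sources used here. The matrices hold 36601 genes, and 55 HIST1H genes. Barcodes with 200 or more genes, at most 20% mitochondrial UMIs and 4400 or more UMIs were kept, 769 of 864 in SP11 and 963 of 1076 in control. Kept cells held 9314743 UMIs in SP11 and 19259739 in control. The methods mention replicates, but 1 library per group was analysed here.

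UMIs were summed over cells and divided by all UMIs outside the rule genes, as CPM. Ratios carry Clopper-Pearson intervals of the split of UMIs, levels exact Poisson intervals and shares of cells Clopper-Pearson intervals. A count of 0 was read against a floor of 3 counts per group. Cells are not replicates, so no p-value is given. The code was tested on simulated data. Members were clustered in Seurat 5.3.0 at resolution 0.5. Promoters are RefSeq sequences of GRCh38.p14. Python 3.11.15, scanpy 1.11.5 and R 4.3.3 were used, with edgeR 4.0.16 and DESeq2 1.42.0 for scaling factors of the counts.

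The members and gene lists were chosen with earlier results of these data known. Named genes were the 10 highest and 10 lowest over both libraries with 200 or more UMIs in each, 5 from each end per library, up to 3 from each end of every list, genes the study discussed, 10 from each end of SP11 over control members, leading genes of clusters and markers. Genes named for their role outside these ends were chosen after their values were seen.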

Additional observations from a re-analysis of the deposited data

Results flagged for a closer look

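For 3 gene lists the summed level in members over other cells had opposite signs in the libraries, with counting intervals apart from 0 in each. The difference between the libraries was not tested, since each has 1 library. Integrated stress response genes had a summed log2 ratio of 0.11 (0.03 to 0.20) in SP11 and -0.25 (-0.30 to -0.20) in control. By gene the SP11 list was balanced, with 7 of 13 measured genes above a ratio of 1 and 6 below. With the low S phase cells set aside from the members, the ratio was 0.04 (-0.05 to 0.14) in SP11 and -0.21 (-0.27 to -0.16) in control. The SP11 interval then included 0, so its sign rested on the low S phase members. AP-1 and immediate early genes had 0.32 (0.22 to 0.42) in SP11 and -0.0895 (-0.16 to -0.02) in control. With the same cells set aside they had 0.13 (0.01 to 0.24) in SP11 and -0.09 (-0.17 to -0.01) in control. Metallothioneins, small proteins that bind zinc and copper, had -0.42 (-0.49 to -0.35) in SP11 and 0.16 (0.09 to 0.23) in control. With the low S phase cells set aside, metallothioneins had -0.29 (-0.36 to -0.21) in SP11 and 0.08 (0.001 to 0.16) in control. MT2A, their most abundant gene, had 625 CPM in SP11 members and 869 CPM in other SP11 cells, and 191 CPM in control members and 162 CPM in other control cells. The cell with the most MT2A UMIs held 300 in SP11, outside the members, and 79 in control, inside them, and without it the log2 ratio of MT2A was -0.41 in SP11 and 0.10 in control.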

How the results depend on the processing

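At the 33rd percentile, 55 SP11 and 137 control cells were members, a mitochondrial maximum of 10% left 186 control members, and the control cuts gave 70 SP11 members. Genes 1.5-fold or more higher in SP11 members numbered 150 with thinned shares, 440 at the 33rd percentile, 431 and 101 with minimums of 50 and 200 UMIs, and 144 without cells rich in macrophage markers. Those lower numbered 1284 at the 33rd percentile, and 593 and 202 with these minimums. In control, 607 and 196 were higher with these minimums, and 602 lower at the 33rd percentile. Over control members, SP11 members had 1703 genes higher with TMM factors, 1768 with DESeq2 size factors, and 1567 lower with the minimum of 200 UMIs. The macrophage markers higher in members numbered 11 in SP11 with the minimum of 50 UMIs, 2 in control with the minimum of 200, and 1 in each library without cells rich in those markers. At resolution 0.3, SP11 members formed 1 group. The log2 ratio of TDO2 in SP11 turned to -3.70 without cells rich in macrophage markers. Its 295 UMIs in SP11 members lay in 7 of 160 cells, so this value rests on very few UMIs and is not read as a lower level. The cause of these moves was not tested beyond the fewer cells or genes that each setting leaves. The counts of G2 and M genes lower in members stayed within 1.5 times of 35 in SP11 and 42 in control under every setting run. Over the named values, 586 settings stayed within the counting interval, 138 lay outside it and 1 turned sign. No paired analysis was possible because each group has 1 library.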
